A study of Mus musculus with 5 samples.

Results

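Kinesins, centromere proteins, spindle checkpoint genes and their regulators were examined in mouse mesenchymal stem cells, which are stromal cells able to become osteoblasts, adipocytes or chondrocytes. Members were taken by gene symbol: numbered kinesins (Kif), centromere proteins (Cenp), the 4 NDC80 complex genes, the Bub and Mad2l checkpoint genes, Aurka, Aurkb, Plk1 to Plk4, Top2a, Incenp, Birc5 and the Cdca genes. They numbered 76 of 12621 genes in the table, and all 76 entered the test. Of 89 symbols that this rule names in the reference gene list, 13 were not analysed here.

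The cells were either wild type (WT) or knockout (KO) for TSG-6, the hyaluronan-binding protein that the gene Tnfaip6 encodes. That gene itself had normalised counts of 6.04 and 3.21 in the wild type and 1.65, 2.38 and 1.36 in the knockout, so every knockout library was lower but still held reads, and it was not called (log2 fold change -1.13, limma adjusted p = 0.0578). Strain was given as Balb/c (C.129S6) for both groups, and the labels used here give no age, culture stage or deleted region. Poly(A) RNA was sequenced as single reads of 75 bp, and the table held 2 wild-type libraries, named C1 and SE, and 3 knockout libraries, named C1, C2 and SE, with suffixes that the labels do not explain. Although 2 biological replicates are stated for each cell type, no label ties a library to its own animal or culture, and the p-values therefore measure the spread between these libraries only. Between 13605555 and 26658725 reads per library were assigned to genes. Values are normalised counts scaled by the submitters to library size, and a difference is a log2 fold change, knockout minus wild type, of the value plus 0.5, with its standard error (SE). A gene was called when the limma p-value, adjusted over all 12484 tested genes, was under 0.05.

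Of 11 markers of mesenchymal stem cells, 9 were in the table. Nt5e (77.4 and 121 in the wild type against 0.752, 0.946 and 0.358 in the knockout) was called lower. So were Cd44 (385 and 325 against 40.5, 28.6 and 38.5) and Ly6a (412 and 284 against 43.0, 48.4 and 17.3). Cxcl12 was called higher, from 115 and 120 to 12788, 14071 and 8179, and the rest of the 9 were not called. No marker of endothelial cells on a list of 5 was in the table, and of 8 haematopoietic markers only Csf1r and Cd68 were, with a summed value of at most 19.1 in any library. Csf1r, a receptor of the macrophage lineage, was called higher in the knockout, at 0.0405 and 0.518 in the wild type and 9.50, 5.79 and 3.73 in the knockout, and Cd68 was not called. The 7 adipocyte markers were all called higher, with summed values of 51.1 and 79.2 in the wild type and from 4387 to 10581 in the knockout, and the highest sum was in knockout C2. The 4 smooth muscle markers in the table (Myh11 was not analysed here) were also all called higher, with sums of 54.9 and 71.1 against 3411 to 7236, and the highest sum was in knockout C1. The test took genes that reached 1 in 2 or more libraries. Csf1r, Adipoq, Plin1, Cidec and Tagln were under 1 in both wild-type libraries, so they could enter only by being higher in the knockout. The part of these marker changes in the results that follow was not tested.

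A dividing cell assembles a spindle of microtubules, and kinetochores built on the CENP-A chromatin of each centromere bind those microtubules through the NDC80 complex. Unattached kinetochores recruit Bub and Mad proteins, which hold back the anaphase-promoting complex, and the passenger complex with Aurora B corrects wrong attachments. Kinesins are motors that move along microtubules or shorten them. Mitotic kinesins slide, align and bundle spindle microtubules and are made mainly in cells that approach division, whereas transport kinesins carry vesicles, organelles and other cargo in cells of any stage.

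Many genes of mitosis carry in their promoters a cell cycle genes homology region (CHR), which is bound by the MuvB core of the DREAM complex, and CCAAT boxes, which are bound by NF-Y. Promoter windows from 250 bases before to 50 bases after the annotated start are shown for the 6 called genes with the smallest p-values among the mitotic kinesins, NDC80 complex, checkpoint and passenger complex that had an entry, and for 2 transport kinesins. They are examples, in which the division genes differ in these letters from each other. The sequences are from RefSeq (GRCm38.p6), read 5′ to 3′ on the gene's strand. Capitals mark the CHR letters, TTTGAA and also TTTAAA, and the CCAAT box. Both strands were searched, on which these matches read TTCAAA and, for the CCAAT box, ATTGG. A CHR match and a CCAAT match can overlap, as they do in Cdca8.
Kif18b (chr11:102925075-102925374, minus strand): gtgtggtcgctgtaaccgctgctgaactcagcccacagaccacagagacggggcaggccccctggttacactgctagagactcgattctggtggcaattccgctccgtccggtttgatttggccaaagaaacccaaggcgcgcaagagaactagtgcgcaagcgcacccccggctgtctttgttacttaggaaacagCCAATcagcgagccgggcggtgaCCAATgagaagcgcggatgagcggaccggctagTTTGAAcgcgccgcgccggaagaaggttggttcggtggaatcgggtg
Kif23 (chr9:61946750-61947049, minus strand): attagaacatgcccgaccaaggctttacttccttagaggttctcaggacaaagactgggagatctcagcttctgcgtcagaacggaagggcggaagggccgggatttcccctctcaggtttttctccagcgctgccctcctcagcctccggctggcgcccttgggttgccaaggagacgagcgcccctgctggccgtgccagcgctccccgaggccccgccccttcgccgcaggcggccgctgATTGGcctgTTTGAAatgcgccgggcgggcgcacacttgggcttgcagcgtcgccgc
Bub1 (chr2:127831810-127832109, minus strand): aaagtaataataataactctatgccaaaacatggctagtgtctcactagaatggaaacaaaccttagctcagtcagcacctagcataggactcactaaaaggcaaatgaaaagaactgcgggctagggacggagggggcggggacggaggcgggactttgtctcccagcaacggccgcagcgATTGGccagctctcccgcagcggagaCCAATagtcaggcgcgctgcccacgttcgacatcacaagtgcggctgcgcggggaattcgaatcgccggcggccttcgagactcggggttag
Kif2c (chr4:117178723-117179022, minus strand): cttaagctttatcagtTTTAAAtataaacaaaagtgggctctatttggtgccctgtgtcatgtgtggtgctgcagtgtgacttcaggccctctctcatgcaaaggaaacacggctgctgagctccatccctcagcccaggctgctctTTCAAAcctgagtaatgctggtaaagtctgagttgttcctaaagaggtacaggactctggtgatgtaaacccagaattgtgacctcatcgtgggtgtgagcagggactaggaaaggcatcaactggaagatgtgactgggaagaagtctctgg
Kif18a (chr2:109280488-109280787, plus strand): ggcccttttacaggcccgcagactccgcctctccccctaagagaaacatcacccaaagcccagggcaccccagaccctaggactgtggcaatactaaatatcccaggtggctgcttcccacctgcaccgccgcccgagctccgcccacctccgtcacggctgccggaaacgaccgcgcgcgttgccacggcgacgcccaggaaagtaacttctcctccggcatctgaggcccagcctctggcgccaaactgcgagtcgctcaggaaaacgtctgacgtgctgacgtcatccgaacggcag
Cdca8 (chr4:124936868-124937167, minus strand): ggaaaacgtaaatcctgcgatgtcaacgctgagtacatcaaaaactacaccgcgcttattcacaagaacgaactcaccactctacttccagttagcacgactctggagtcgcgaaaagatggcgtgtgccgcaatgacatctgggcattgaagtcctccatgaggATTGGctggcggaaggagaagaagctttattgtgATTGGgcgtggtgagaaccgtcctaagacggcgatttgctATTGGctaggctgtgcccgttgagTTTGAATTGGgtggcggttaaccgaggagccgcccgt
Kif1a (chr1:93101825-93102124, minus strand): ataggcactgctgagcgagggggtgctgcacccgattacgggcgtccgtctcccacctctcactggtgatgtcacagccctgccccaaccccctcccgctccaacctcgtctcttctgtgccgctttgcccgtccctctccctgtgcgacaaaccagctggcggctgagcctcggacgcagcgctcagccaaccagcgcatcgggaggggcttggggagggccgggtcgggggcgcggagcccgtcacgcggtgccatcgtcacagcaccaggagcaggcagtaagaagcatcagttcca
Kif21a (chr15:91049902-91050201, minus strand): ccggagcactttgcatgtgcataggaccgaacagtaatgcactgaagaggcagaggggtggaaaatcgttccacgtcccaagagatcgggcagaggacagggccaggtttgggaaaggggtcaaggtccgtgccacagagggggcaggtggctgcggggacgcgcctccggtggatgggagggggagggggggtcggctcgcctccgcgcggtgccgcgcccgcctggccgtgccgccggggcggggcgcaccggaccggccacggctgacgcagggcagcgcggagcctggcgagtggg
In Kif18b, TTTGAA begins at base 4 after the start and the CCAAT matches begin at -53 and -30. Kif23 has TTTGAA at base 3 and a CCAAT match at -7, and Cdca8 has TTTGAA at base 14. Bub1 has CCAAT matches at -68 and -42 and none of the searched CHR letters. Kif18a holds no match to either motif, and neither do the printed windows of Kif1a and Kif21a. A second window of Kif1a, not printed, has TTTGAA at -44. The window of Kif2c has TTTAAA at -234 and TTCAAA at -103. The RefSeq starts of Kif2c and Cdca8 lie inside the GENCODE genes.

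Promoter entries were matched for 68 of the 76 members. Spc24, Aurkb, Incenp, Cdca2, Kif20a, Kif21b, Kif13b and Kif5b had none. A CHR match was present in 10 of 11 windows of mitotic kinesins (90.9%), with Kif18a the exception. Of 12 windows of transport kinesins 1 held one (8.33%), a second start of Kif1a. The share was 27.6% of all 32851 promoter windows and 19.4% of the 12453 windows of tested genes. CCAAT was found in 7 of 11 mitotic kinesin windows (63.6%), 4 of 12 transport kinesin windows (33.3%) and 37.4% of all windows. The class of centromere protein genes, labelled inner centromere in the figures, leaves out Cenpe, Cenpj and Cenpv. It showed another mixture: 7 of 18 windows held a CHR match (38.9%) and 14 held CCAAT (77.8%). An E2F-like site, TTCCCGC or TTGGCGC on either strand, was in 8 of the 18 (44.4%), against 12.0% of windows of tested genes and 6.81% of all windows. Among division genes, a CHR match was in 18 of 27 windows of those called lower (66.7%) and in 12 of 19 windows of the others (63.2%). CCAAT was in 20 (74.1%) and 11 (57.9%) of these windows, and an E2F-like site in 5 (18.5%) and 7 (36.8%). These matches are letters in a window and were not measured as bound sites.

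**Figure D1:**
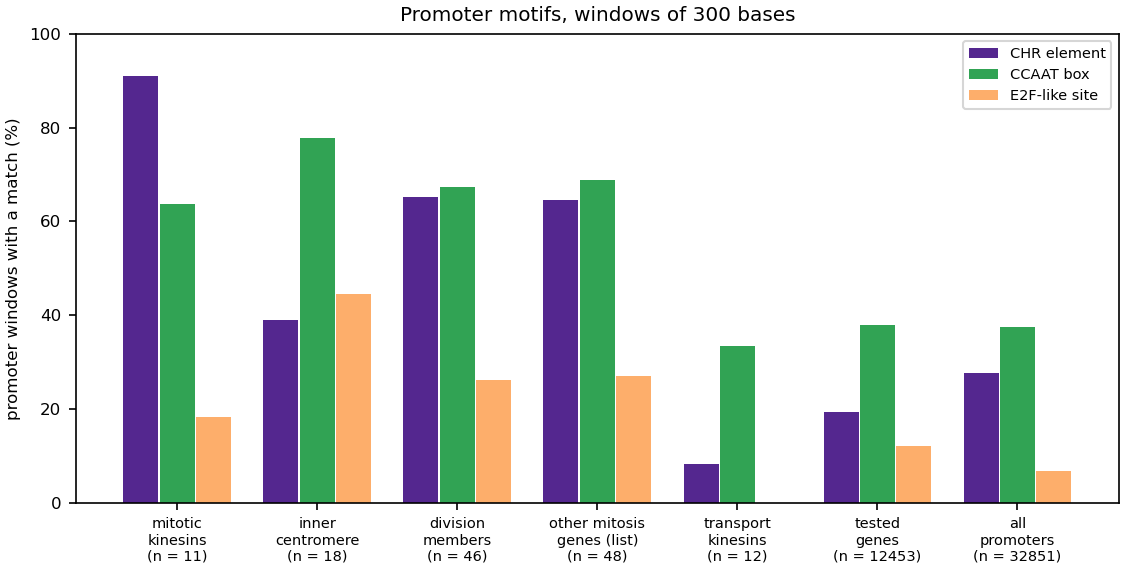
Share of RefSeq promoter windows (y axis, percent) with a match to the CHR element, the CCAAT box or an E2F-like site, for groups of genes (x axis, with the number of windows). CHR matches are in 90.9% of mitotic kinesin windows and 8.33% of transport kinesin windows.

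Of the 76 members, 33 fell and 5 rose, where 34.3% of all tested genes were called, 17.1% lower and 17.2% higher. The 48 members with a role in cell division (mitotic kinesins, centromere proteins, NDC80 complex, checkpoint, passenger complex, mitotic kinases and chromosome structure genes) held 27 of the falls, and 21 of them were not called. None of the 48 was called higher by limma. At an unadjusted limma p under 0.05, 0 were higher and 35 lower. On recovered reads edgeR called 24 of them lower and 0 higher (16.3% and 16.3% of all tested genes), and DESeq2 29 and 0 (17.9% and 20.8%). Their median log2 fold change was -1.14, against -0.09 over all tested genes, and 47 of 48 were below 0, as were 53.8% of all tested genes. Groups did not overlap, with every knockout library below every wild-type library, in 35 of 48, and above in 1 (Cenpo). Over all tested genes 58.8% did not overlap, 30.7% lower and 28.0% higher. In these bulk libraries, fewer dividing cells and less of each transcript per dividing cell cannot be told apart.

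**Figure D2:**
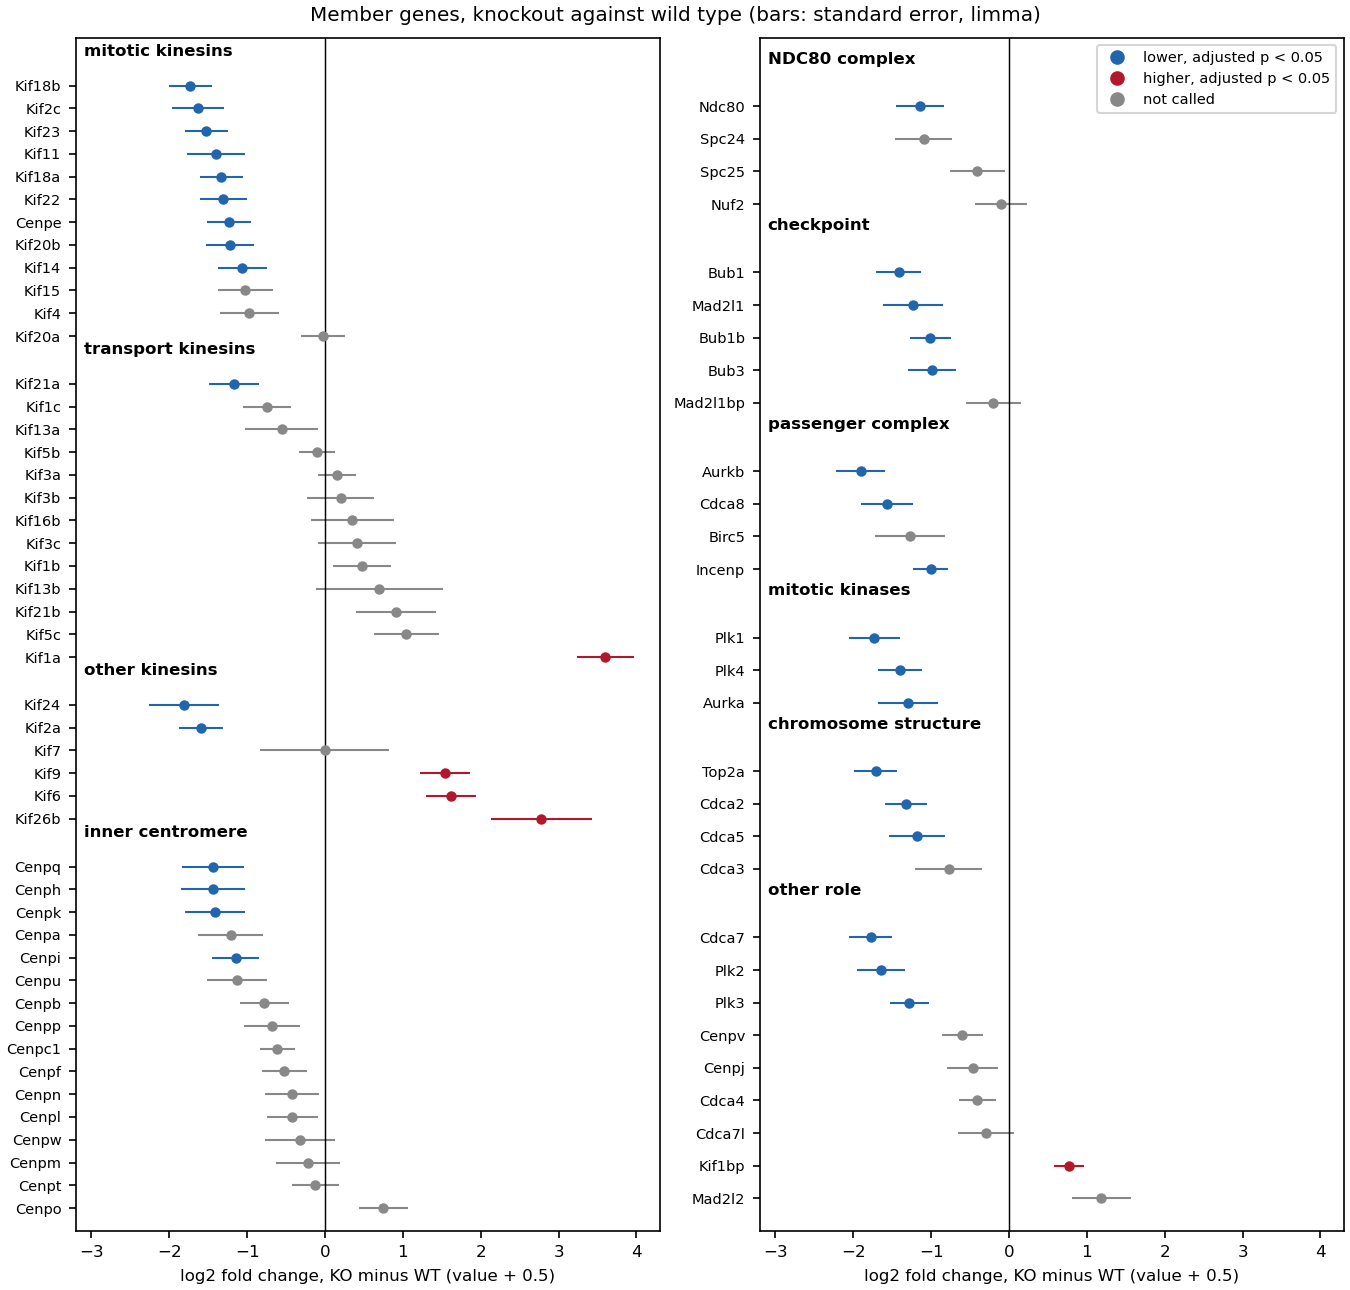
Log2 fold change (x axis, knockout minus wild type, of the value plus 0.5) of all 76 members by role, with bars for the standard error from limma. Points of the division roles lie left of 0 except Cenpo, while transport kinesins lie on both sides.

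Of 12 mitotic kinesins, 9 fell and none rose (0 also by edgeR, by DESeq2 and at an unadjusted p under 0.05), with a median log2 fold change of -1.27. Over all tested genes limma called 17.1% lower and 17.2% higher. Kif18b, a plus-end kinesin that limits astral microtubule length (chromosome 11, 102905529 to 102925124, minus strand, GRCm38), stood at a normalised count of 66.9 in the C1 wild type and 87.8 in the SE one. In the knockout, C1 had 24.6, C2 18.5 and SE 26.01. The groups did not overlap, and the log2 fold change was -1.73 (SE 0.27, adjusted p = 0.00428). Its relative Kif18a, which dampens chromosome movements on the metaphase plate, went from 48.6 and 44.0 to 22.3, 14.6 and 18.1 (log2 fold change -1.33).

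Kif23, the motor of centralspindlin in the midzone and midbody (chromosome 9, 61915905 to 61946774, minus strand), had 151 and 123 in the wild type. In knockout C1, C2 and SE it had 62.6, 40.2 and 41.5, a 2.85-fold lower mean (log2 fold change -1.53, SE 0.28, adjusted p = 0.00732). Kif2c, or MCAK, depolymerises microtubules at centromeres to release wrong attachments. Its values were 137 and 128 in the wild type and 65.3, 34.1 and 34.3 in the knockout, where C1 stood above the other libraries (log2 fold change -1.63, adjusted p = 0.0118). The kinetochore motor gene Cenpe, the chromokinesin gene Kif22, Kif20b, Kif14 and Kif11, whose product pushes the spindle poles apart, also fell, with log2 fold changes from -1.06 (Kif14) to -1.40 (Kif11).

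Kif15, which backs up Kif11 in spindle bipolarity, and Kif4, a chromokinesin of the midzone, missed the threshold with groups that did not overlap (log2 fold changes of -1.02 and -0.97, adjusted p = 0.0669 and 0.0932). Kif20a stood apart from this class. It encodes the kinesin that relocates Aurora B to the midzone at anaphase, and its normalised counts were 287 and 282 in the wild type against 385, 222 and 256 in the knockout. The knockout values lay on both sides of the wild type, and the log2 fold change of -0.03 (adjusted p = 0.958, SE 0.29) changed sign in 7 of 19 alternative analyses. Of its exon bases, 29.3% are shared with Cdc23 on the opposite strand, and whether counting used the strand was not given in the sources used here. Cdc23 itself had 114 and 118 in the wild type and 79.1, 70.6 and 92.4 in the knockout.

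Of 13 transport kinesins, Kif1a rose and Kif21a fell, and 11 were not called, where 17.2% of all tested genes were called higher and 17.1% lower. The median log2 fold change was 0.35, but it was -0.15 without knockout SE and -0.07 without wild-type C1. Kif1a, Kif5c and Kif21b were under 1 in both wild-type libraries, so they could enter the test only by being higher in the knockout. Kif1a, a fast motor for synaptic vesicle precursors and dense core vesicles (chromosome 1, 93015464 to 93101951, minus strand), had 1 read in the C1 wild type and 4 reads in the SE one. Its normalised counts were 0.0405 and 0.207 there, and 5.83, 5.56 and 10.5 in knockout C1, C2 and SE. This was the largest rise of any member, at 3.60 on the log2 scale (SE 0.37, adjusted p = 0.000802). From its 418 knockout and 5 wild-type reads the ratio was 59.6, with an exact 95% interval of 25.4 to 185 for counting error, and the fold of means ran from 35.3 to 180 without single libraries. Kif21a, a motor that also restrains microtubule growth at the cell cortex, went from 24.2 and 14.7 to 8.04, 8.81 and 7.52 (log2 fold change -1.17, SE 0.32, adjusted p = 0.0325). The knockout values lay close together. That call was lost in 6 of 19 alternatives, among them the fits without wild-type C1, wild-type SE, knockout C1 and knockout C2.

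Kif5b, the ubiquitous conventional kinesin heavy chain and the highest transport kinesin per kilobase of exon (33.9 normalised counts per kb in the wild type), was not called. It had 272 and 268 in the wild type and 267, 211 and 286 in the knockout, and the log2 fold change was -0.10 (SE 0.23, adjusted p = 0.772). Kif3a, a motor subunit of the ciliary kinesin-2, had 75.7 and 65.7 against 77.2, 94.4 and 66.1. Its partners Kif3b and Kif3c were not called either. Kif5c, a neuronal heavy chain, had a read in all libraries except wild-type SE and stayed at or below 1.32, so its level is close to the depth limit.

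Knockout SE was the highest knockout library for 10 of the 13 transport kinesins (76.9%), and 41.8% of all tested genes had that pattern. The clearest case was Kif13b, a motor for membrane cargo, with 1.58 and 3.16 in the wild type, 1.79 and 2.19 in knockout C1 and C2, and 14.0 in knockout SE. Transport kinesins have long transcripts, with a median of 7981 annotated exon bases. Among the 2232 tested genes at least that long, knockout SE was the highest knockout library in 73.1%, against 35.0% of shorter genes. For mitotic kinesins the median was 7209 exon bases, and knockout SE was the highest knockout library in 3 of 12. The part of transcript length in these values was not tested.

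**Figure D3:**
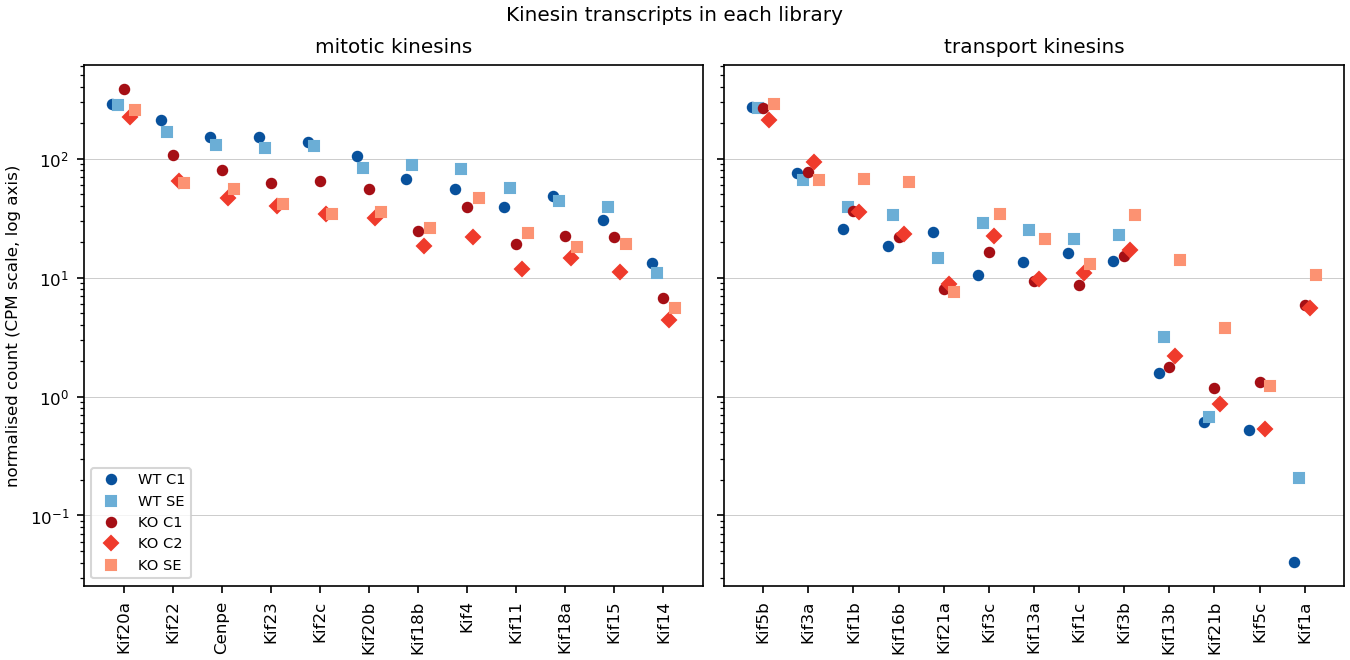
Normalised count (y axis, log scale) of each mitotic and transport kinesin (x axis) in the 5 libraries, with 1 point per library. Knockout points lie below wild-type points for 11 of 12 mitotic kinesins, Kif20a excepted, as for 30.7% of all tested genes. The value of 0 of Kif5c in wild-type SE is not drawn.

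The remaining 6 kinesins have ciliary, signalling or microtubule-shortening roles, and 5 of them were called, 3 higher and 2 lower. Over all tested genes 34.3% were called, 17.2% higher and 17.1% lower. Kif2a, a depolymerase used at spindle poles and in neurites, went from 34.5 and 26.3 to 8.89, 9.50 and 10.6 (log2 fold change -1.59, SE 0.28, adjusted p = 0.00647). Dimt1, which shares 19.2% of the exon bases of Kif2a on the opposite strand, had 57.1 and 37.8 against 25.1, 15.7 and 13.3. Kif24, which shortens centriolar microtubules and restrains cilia, had 3.40 and 4.299 in the wild type and 0.423, 0.416 and 1.72 in the knockout (log2 fold change -1.81, SE 0.45, adjusted p = 0.0237).

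The 3 that rose were scarce in the wild type and higher in the knockout. Kif6 and Kif26b, under 1 in both wild-type libraries, could enter the test only by being higher in the knockout. Kif9 reached 1 in a single wild-type library and also needed the knockout to enter, so the filter favours this pattern. Kif26b, an atypical kinesin without motor activity that acts in cell adhesion and Wnt5a-Ror signalling, had 0.365 and 0.363 in the wild type. It reached 6.72 in knockout C1, 1.93 in C2 and 11.4 in SE, a wide spread, and the log2 fold change was 2.78 (SE 0.65, adjusted p = 0.0178). Kif6 went from 0.527 and 0.984 to 3.10, 2.76 and 4.16, and Kif9, a kinesin of motile cilia, from 0.932 and 1.24 to 3.57, 5.49 and 3.51. Kif7, a regulator of Hedgehog signalling in the primary cilium, followed the suffix and not the genotype: it had 4.46, 8.04 and 6.85 in the 3 C libraries and 26.9 and 24.5 in the SE libraries.

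Of 16 centromere protein genes, 4 fell, a share near the 17.1% of all tested genes called lower. None rose (0 also by edgeR, by DESeq2 and at an unadjusted p under 0.05), and the median log2 fold change was -0.65. The 4 that fell, Cenph, Cenpi, Cenpk and Cenpq, encode subunits of the network that sits on CENP-A nucleosomes. Cenpi, on chromosome X, went from 59.6 and 53.1 to 34.6, 19.7 and 23.2 (log2 fold change -1.15, SE 0.31, adjusted p = 0.0289). Cenph, which binds Cenpk and Cenpi, had 68.8 and 40.0 in the wild type and 29.2, 17.7 and 13.3 in the knockout, where the highest knockout library lay below the lowest wild-type library by less than the wild-type libraries differed from each other. Cenpk and Cenpq had log2 fold changes of -1.42 and -1.44.

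Cenpa, the centromeric histone H3 variant, had 254 and 170 in the wild type and 147, 82.5 and 58.6 in the knockout. All 3 knockout libraries were lower, but the spread was wide, and the gene missed the threshold (log2 fold change -1.21, SE 0.41, adjusted p = 0.0635). Cenpc1, which links CENP-A chromatin to the outer kinetochore, showed the reverse, a small and even difference. Its values were 41.5 and 42.7 against 27.3, 26.6 and 28.2 (log2 fold change -0.61, SE 0.23, adjusted p = 0.0783). Cenpf, Cenpl, Cenpm, Cenpn, Cenpp, Cenpt and Cenpw overlapped between the groups. Cenpo was the only one of the 16 with a positive fold change, at 11.5 and 8.55 in the wild type and 19.4, 18.8 and 13.5 in the knockout (log2 fold change 0.75, adjusted p = 0.112), and 19.0% of its exon bases are shared with Adcy3 on the opposite strand.

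The NDC80 complex, a rod of 4 proteins that grips the microtubule end, was uneven. Ndc80 fell, from 116 and 78.3 to 57.4, 38.8 and 35.7 (log2 fold change -1.14, SE 0.31, adjusted p = 0.0303). Spc24 went the same way without passing the threshold (79.2 and 56.6 against 47.8, 26.3 and 23.9, adjusted p = 0.059). Nuf2, the direct partner of Ndc80, overlapped between the groups, at 150 and 107 in the wild type and 175, 98.3 and 95.5 in the knockout (log2 fold change -0.10, SE 0.34, adjusted p = 0.85). Spc25, the partner of Spc24, also overlapped, with a log2 fold change of -0.41. Whether the 4 genes differ from each other in their change was not tested.

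Of 5 checkpoint genes, 4 fell, where 17.1% of all tested genes were called lower. Bub1, the kinase that recruits checkpoint proteins to kinetochores (chromosome 2, 127801122 to 127831865, minus strand), went from 110 and 127 to 57.1, 32.9 and 45.1 (log2 fold change -1.41, SE 0.29, adjusted p = 0.0113). Bub1b, or BubR1, part of the complex that inhibits Cdc20, had 125 and 180 against 81.4, 61.0 and 81.5 (log2 fold change -1.01, adjusted p = 0.0275). Bub3, the shared partner of both and the highest of the class per kilobase of exon, had 451 and 314 in the wild type and 245, 192 and 144 in the knockout (adjusted p = 0.0469). Mad2l1, the Mad2 that changes shape to bind Cdc20, had 224 and 137 against 115, 67.0 and 53.2 (adjusted p = 0.0492). The last 2 calls lay near the threshold, and edgeR called 2 of the 5 genes lower. Mad2l1bp, which helps to switch the checkpoint off, was not called (log2 fold change -0.20).

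All 4 passenger complex genes were lower in every knockout library than in every wild-type library, as were 30.7% of all tested genes. Of the 4, 3 fell, where 17.1% of all tested genes were called lower. Aurkb, the kinase of the complex (chromosome 11, 69045647 to 69051664), had 224 and 167 in the wild type. In the knockout it had 72.5, 46.9 and 39.8, the largest fall of any member (log2 fold change -1.90, SE 0.32, adjusted p = 0.00516). Cdca8, or borealin, whose promoter is printed above, went from 164 and 112 to 64.1, 43.4 and 33.5 (log2 fold change -1.57, adjusted p = 0.0138). The scaffold gene Incenp changed less, from 116 and 146 to 70.6, 58.3 and 65.4 (log2 fold change -1.002, adjusted p = 0.0158). Birc5, or survivin, had 273 and 170 against 151, 84.9 and 55.2. Its spread within the groups was larger, and it was not called (log2 fold change -1.27, SE 0.45, adjusted p = 0.0691).

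The 3 mitotic kinases fell, with Plk1, which acts from mitotic entry to cytokinesis, in the lead. Over all tested genes 17.1% were called lower. Plk1 had 284 and 234 in the wild type and 115, 67.6 and 59.6 in the knockout (log2 fold change -1.73, SE 0.33, adjusted p = 0.00835). Plk4, the trigger of centriole duplication, went from 84.2 and 89.5 to 42.4, 25.2 and 32.2 (log2 fold change -1.40), and Aurka, the kinase of spindle poles, from 244 and 174 to 133, 78.0 and 56.6 (log2 fold change -1.29, adjusted p = 0.0424). Among 4 chromosome structure genes, 3 fell, against the same 17.1% of all tested genes. Top2a, which untangles sister chromatids, went from 298 and 356 to 117, 74.2 and 112. Cdca2, a phosphatase anchor on anaphase chromosomes, and Cdca5, or sororin, which protects cohesion, had log2 fold changes of -1.33 and -1.18. Cdca3, counted in this class although its described role is to promote degradation of Wee1, overlapped between the groups (197 and 123 against 151, 86.4 and 57.6).

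Of 9 members that share a name with these genes but have other roles, 3 fell and 1 rose. The shares over all tested genes were 17.1% lower and 17.2% higher. Plk2 and Plk3 are stress-response kinases of the polo family. Plk2 had 350 and 352 in the wild type and 144, 76.8 and 126 in the knockout (log2 fold change -1.65, SE 0.31, adjusted p = 0.00816), and Plk3 went from 71.4 and 76.0 to 26.7, 27.6 and 37.0 (log2 fold change -1.28). Cdca7, which with Hells remodels heterochromatin, had 55.1 and 70.2 against 22.1, 16.2 and 15.8 (log2 fold change -1.77, SE 0.28, adjusted p = 0.00413). Kif1bp is not a motor but a protein that binds kinesins and blocks their motor domains. It rose from 88.4 and 80.4 to 146, 143 and 144, with knockout libraries that lay closer together than the wild-type pair (log2 fold change 0.77, SE 0.20, adjusted p = 0.0252). Mad2l2, or Rev7, of translesion synthesis and end protection, had 16.4 and 10.8 in the wild type and 32.9, 42.4 and 21.1 in the knockout, and missed the threshold (log2 fold change 1.19, adjusted p = 0.051).

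Within the knockout, most division genes were higher in C1 than in C2 and SE, while the lowest library differed by role. Knockout C1 was above knockout C2 for 47 of the 48 division members (97.9%), with a median ratio of 1.66, and above knockout SE for 42 of 48, with a median ratio of 1.72. Over all tested genes, C1 was above C2 in 51.4%, with a median ratio of 1.01, and above SE in 49.3%. The median of the mitotic kinesins, as a log2 ratio to each gene's wild-type mean, was -0.82 in knockout C1, -1.61 in C2 and -1.34 in SE. For the passenger complex the medians were -0.99, -1.52 and -2.01. Of the 48 division members, the lowest knockout library was SE for 27 and C2 for 20. It was C2 for 11 of 12 mitotic kinesins and SE for 11 of 16 centromere protein genes. Over all 12484 tested genes it was SE for 5215 and C2 for 3253. The adipocyte marker sum was 5063 in knockout C1, 10581 in C2 and 4387 in SE, and the smooth muscle sum 7236, 5078 and 3411. A relation between these values was not tested over 3 libraries. In the wild type, C1 was the higher library for 37 of the 48 division members (77.1%), against 55.4% of all tested genes. It was so for 14 of 16 centromere protein genes, all 4 NDC80 genes, 8 of 12 mitotic kinesins, 3 of 5 checkpoint genes and 2 of 3 mitotic kinases, and for 3 of 4 genes each of the passenger complex and chromosome structure.

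**Figure D4:**
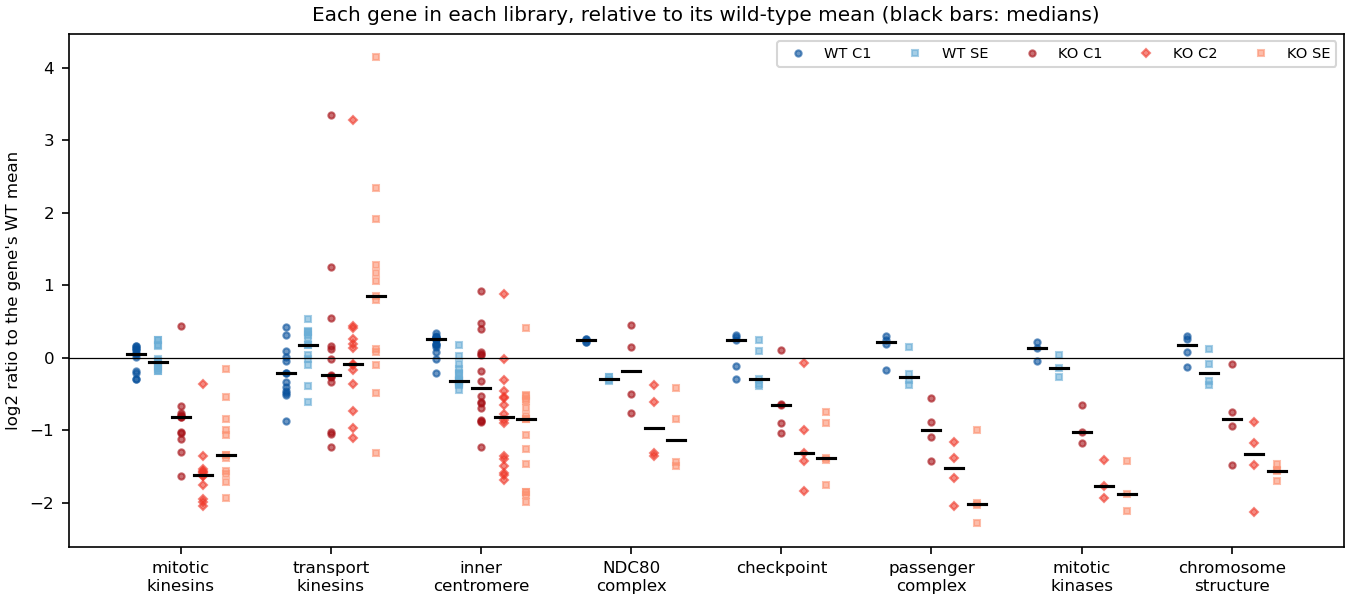
Log2 ratio of each gene's value (plus 0.5) in each library to its wild-type mean (y axis), by role (x axis); points are genes and black bars are medians over the genes of a library. In the division roles knockout C1 lies nearer to 0 than knockout C2 and SE.

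The difference between the groups was also read within the suffixes, C1 and C2 against wild-type C1 and SE against SE. Of the 48 division members, 46 were lower in the knockout in both, where 46.8% of all tested genes were, with medians of -1.21 in C and -1.19 in SE. The exceptions were Cenpo, higher in both, and Kif20a, which had 0.03 in C and -0.14 in SE. With the suffix as a block, 45 members were called lower, the 33 among them, and 9 higher, against 32.3% and 28.3% of all tested genes, and Cenpo was the single division member among the 9. A test of the interaction of genotype and suffix (limma) called 0 members and 0 of all genes (0.0%), with 2 members and 327 genes at an unadjusted p under 0.05. That fit left 1 residual degree of freedom, so the lack of calls does not show that the suffixes agree.

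Stretches of chromosome differed between knockout and wild type as well, so each member was set beside the median log2 fold change of the nearest tested genes on its chromosome, 25 on each side. Of the 48 division members, 44 lay below their neighbours, a pattern of 49.8% of all tested genes, and the exceptions were Cenpc1, Cenpm, Cenpo and Cenpt. The neighbour medians of the mitotic kinesins ran from -0.67 (Cenpe) to 0.32 (Kif4). Around Cenpo the median was 0.72, close to its own 0.75, and around Nuf2 it was 0.56, above its own value. Around Cenpw, not called at -0.32, it was 1.57. Cenpk (neighbours at -0.75), Cenph (-0.70), Cdca8 (-0.74) and Kif24 (-0.87) lay in stretches that were low as a whole. So did other members called lower, among them Plk2 (-0.70), Cenpe (-0.67), Plk3 (-0.65), Kif2c (-0.63) and Kif2a (-0.60). After centring on the median of each chromosome, 9 mitotic kinesins were called lower, 8 of them the same genes, and 23 members in all, against 13.2% of tested genes.

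**Figure D5:**
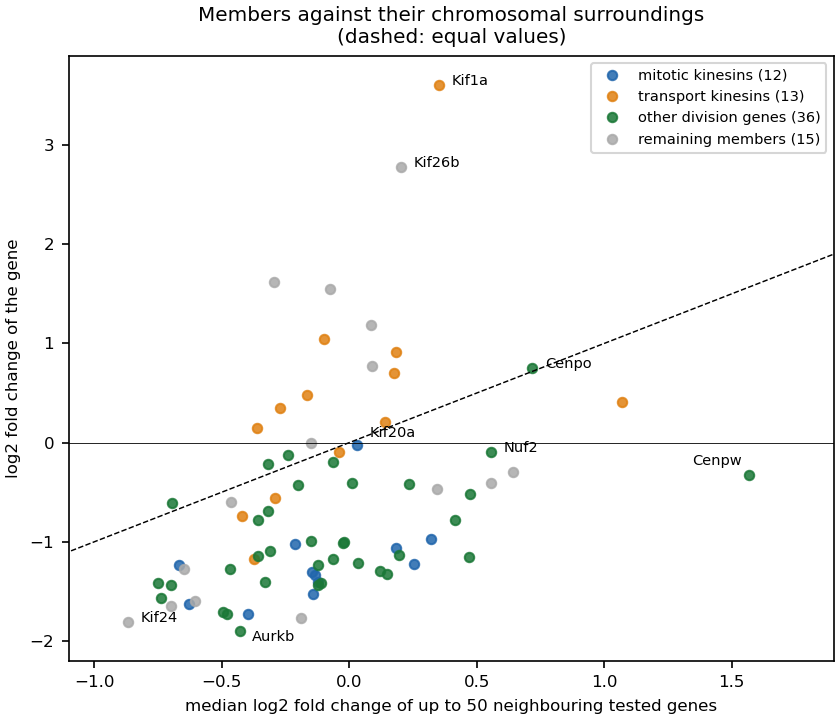
Log2 fold change of each member (y axis) against the median log2 fold change of its neighbouring tested genes (x axis), coloured by role, with a dashed line at equal values. The 12 mitotic kinesins all lie below the line, whereas Kif1a and Kif26b lie far above it.

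Lists of other genes were set beside the members. Of 53 further mitosis genes, 30 fell and none rose (0 also by edgeR, by DESeq2 and at an unadjusted p under 0.05), with a median log2 fold change of -1.19. Among all tested genes 17.1% were called lower and 17.2% higher. Cdc25b, the phosphatase that starts Cdk1 activation, had 82.3 and 118 in the wild type and 20.1, 18.4 and 15.5 in the knockout (log2 fold change -2.43, SE 0.27, adjusted p = 0.00113). The condensin genes Smc2 and Ncapg had log2 fold changes of -2.32 and -1.83, and Ect2, which turns on RhoA at the division plane, had -2.24. Mybl2, a transcription factor that works with MuvB on mitotic promoters, went from 30.8 and 35.9 to 8.04, 6.999 and 10.2. Kifc1, a minus-end kinesin that clusters spindle poles and is outside the symbol rule, fell from 31.3 and 36.5 to 8.84, 10.8 and 9.03, and so resembled the mitotic kinesins in direction. The proliferation marker gene Mki67 was not called, at 75.5 and 77.0 against 48.5, 36.5 and 67.6 (adjusted p = 0.156), and neither was Cdk1 (adjusted p = 0.167). Mki67 and Cdk1 were named after their values were seen.

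Of 32 further genes of microtubule transport (kinesin light chains, dynein, dynactin and adaptors), 4 fell and 2 rose, with a median of -0.05. Among all tested genes 17.1% were called lower and 17.2% higher, so neither count exceeds the general share. The dynein adaptor gene Bicd1 went from 14.3 and 12.7 to 2.59, 3.59 and 2.15 (log2 fold change -2.12, SE 0.32, adjusted p = 0.00367). The dynein light intermediate chain gene Dync1li1 (log2 fold change -1.09), the dynein regulator gene Pafah1b1 (-0.93) and the kinesin light chain gene Klc3 (-1.45) also fell. Dctn2, a dynactin subunit, rose from 262 and 225 to 499.5, 529 and 400.4 (log2 fold change 0.96, adjusted p = 0.0222), and the dynein light chain gene Dynlt3 had a log2 fold change of 0.98.

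The number of calls rested on few libraries, although called members kept their direction. Each called member had groups that did not overlap, so leaving out a library could not turn its direction. Some members that overlapped, among them Nuf2 and Kif20a, changed sign in alternatives. All 33 members called lower kept a negative fold change in each of 19 alternative analyses, and the 5 called higher kept a positive one. Aurkb, Cdca7, Kif18b, Plk2 and Top2a were called lower and Kif1a higher in every alternative. Without wild-type C1, 5 members were called lower, without wild-type SE 9 and without knockout C2 12, against 4.97%, 5.25% and 10.4% of the genes tested in those fits. Of the mitotic kinesins, 1, 2 and 3 were called lower in these fits, and of the 53 further mitosis genes 15, 14 and 15. Kif1a alone was called higher without wild-type C1 and without wild-type SE, against 9.48% and 8.78% of genes. With a minimum value of 5, at which 70 members were tested, 3 members were called higher (15.4% of genes).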

How the data were processed

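Messenger RNA libraries of mesenchymal stem cells from wild-type and TSG-6 knockout mice (2 and 3 columns) were prepared with a strand-marking kit. The submitters' processing notes name STAR 2.5, featureCounts 1.5.2 and edgeR without a role; the build, annotation and strand setting of the authors are not given in the sources used here. The deposited values are a signal, that is, read counts per gene that the authors scaled for library size; within each column they were whole multiples of 1 read, and reads were recovered as whole numbers (within 0.02) in 100% of values.

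Column names gave the group but no replicate number. limma 3.58.1 (lmFit, eBayes with a trend) was run on log2 of the value plus 0.5, over the 12484 genes that reached 1 in 2 or more libraries, with a term for group, 3 residual degrees of freedom and Benjamini-Hochberg adjustment. edgeR 4.0.16 (quasi-likelihood) called 4079 genes and DESeq2 1.42.0 called 4836 on recovered reads, against 4279 with limma. The fit was tested on simulated data. Alternatives were other scalings, pseudocounts and filters, eBayes without a trend or robust, leaving out libraries, the suffix as a block and chromosome centring. R 4.3.3 was used. Ensembl identifiers gave coordinates and exon lengths for 12607 of 12621 genes in GENCODE M21 (GRCm38). Promoters came from RefSeq (GRCm38.p6) by symbol or synonym.

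Members, role classes, lists, motifs and tests were chosen with earlier results of these data known. Named genes were, per role, up to 4 called genes per direction with the smallest p, the gene with the highest mean, calls against the majority, and the 3 largest changes per direction over all members; per list, up to 6 called genes per direction with the smallest p. Other members were named after their values were seen. The depth per library was 13605555 reads or more, and intervals from reads cover counting error only.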

Additional observations from a re-analysis of the deposited data

Results flagged for a closer look

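Of the members, 2 had every knockout library on opposite sides of the wild type within the C and the SE libraries. Kif7 was higher in knockout C1 and C2 than in wild-type C1 and lower in knockout SE than in wild-type SE, and the difference between the SE and C log2 differences was -0.81. For Kif5b the order was the reverse, lower within C and higher within SE, with a difference of 0.29. Neither passed the limma test of the interaction, which called 0 of 12484 genes. With 1 residual degree of freedom, that test cannot decide whether the suffixes differ for these genes.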

How the results depend on the processing

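No paired analysis was possible because the columns carry none of the replicate numbers of the sample titles. The suffix that libraries of both groups share was fitted as a block instead, and the labels do not say that it pairs them. With that block, 45 members were called lower instead of 33, 9 members were called higher instead of 5, 2 transport kinesins lower instead of 1 and 3 higher instead of 1, and 7568 genes in all instead of 4279. With a filter at 5, 3 members were called higher, and Kif6 and Kif9, called higher in the main fit, did not enter the test. The call of Kif21a, the single transport kinesin called lower, left a count of 0 with quantile normalization and with chromosome centring. Leaving out each library in turn, which leaves 1 wild-type library that is assumed to vary like the other group in 2 of the fits, gave 5 to 33 members lower, 1 to 6 higher, 1 to 11 mitotic kinesins lower, 0 to 1 transport kinesins lower, 14 to 31 further mitosis genes lower and 1676 to 4964 genes in all. The lowest counts came without a wild-type library or knockout C2 (1728 genes without wild-type C1, 1676 without wild-type SE, 2741 without knockout C2). Genes near 0 changed sign. Kif20a had log2 fold changes of 0.039 with quantile normalization, 0.034 with median-of-ratios rescaling, 0.025 without both SE libraries, 0.019 with edgeR and 0.077 with DESeq2, and from -0.25 to 0.14 without single libraries. Kif5b had -0.19 to 0.030 without single libraries. Nuf2 had 0.0042 with quantile normalization and 0.00293 with DESeq2, and from -0.38 to 0.15 without single libraries. The cause of these changes was not tested. The scarcest members, Kif1a and Kif5c in the wild type, rest on few reads.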
